A study of Mus musculus with 21 samples.

Results

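The genes described here are 9 genes of the Nodal and activin pathway, Inhbb, Inhba, Nodal, Lefty1, Lefty2, Tdgf1, Acvr2b, Smad7 and Fst, out of 23412 gene symbols with a deposited read count. They were chosen by symbol as ligands, inhibitors and targets of the pathway. The list was drawn up with results of these data known, and Inhbb gave it its name because its low level after loss of PDS5 proteins was known, so Inhbb is described by its levels without a test and the other 8 genes are tested. Poly-A RNA of v6.5 mouse embryonic stem cells (mESCs) was sequenced 48 h after transfection of 50 nM siRNA, and each of 7 conditions had 3 libraries. PDS5A and PDS5B are alternative regulatory subunits of cohesin, the ring-shaped complex that holds and loops chromatin, and STAG1 and STAG2 are alternative subunits of the same complex.

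Wildtype (WT) mESCs received siGLO, a control siRNA, or siPds5b. Pds5b-/- mESCs received siGLO. Pds5a-/- mESCs received siGLO, siPds5b, siStag1 or siStag2, so the cells of all 4 of these conditions lacked PDS5A, and Pds5a-/- siPds5b mESCs are called dual depleted. Each knockout was 1 CRISPR clone, so the spread between its 3 libraries holds no difference between clones, and effects of the clone and of the gene cannot be told apart. An siRNA lowers a transcript without removing it. The study calls its replicates of read counts in WT and knockout mESCs biological, but no label says whether libraries of a condition came from separate cultures, so the p-values measure only the spread between these libraries, which may be in part technical.

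Nodal and the activins are secreted ligands of the TGF-beta family. Activins are dimers of inhibin beta subunits, which Inhba and Inhbb encode. Both kinds of ligand bind type II receptors such as ACVR2B, which activate type I receptors that phosphorylate SMAD2 and SMAD3, and these enter the nucleus with SMAD4 and often bind DNA with FOXH1. Nodal also needs a co-receptor of the Cripto family, encoded by Tdgf1. LEFTY1 and LEFTY2 are secreted antagonists that are themselves targets of the pathway, SMAD7 blocks the receptors from inside the cell, and follistatin, encoded by Fst, binds activin outside it. In mESCs the pathway is active through ligands the cells make themselves, and in the embryo it patterns the epiblast and induces mesendoderm.

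On the mm10 genome, in the GENCODE vM21 annotation, Inhbb lies on chromosome 1 from 119415465 to 119422248 on the minus strand, and Inhba lies on chromosome 13 from 16011851 to 16031621 on the plus strand. Nodal lies on chromosome 10 from 61417972 to 61425338 on the plus strand. Lefty2 and Lefty1 are close to each other on the plus strand of chromosome 1, from 180893108 to 180899103 and from 180935022 to 180938400. Tdgf1 lies on chromosome 9 from 110939603 to 110946158 on the minus strand and Acvr2b on the plus strand of chromosome 9 from 119402118 to 119434995. Fst lies on chromosome 13 from 114452290 to 114458951 on the minus strand. Inhba, Acvr2b and Fst overlap genes annotated on the opposite strand, and the use of strand in counting is not given in the sources used here, so reads of those partners cannot be told apart from theirs. Of all 150-base stretches of exon sequence, Lefty1 shares 0.747% with Lefty2, Lefty2 shares 0.488% with Lefty1 and Tdgf1 shares 0.181% with its pseudogene Tdgf1-ps1.

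The 250 bases before the start site of 3 of the genes are shown as examples that differ in base composition. They are RefSeq sequences on mm10, read 5′ to 3′ on the strand of the gene, and capitals mark matches to the motifs searched. Inhbb is at chr1:119422249-119422498 (minus strand), Nodal at chr10:61417722-61417971 (plus strand) and Tdgf1 at chr9:110946159-110946408 (minus strand).
Inhbb: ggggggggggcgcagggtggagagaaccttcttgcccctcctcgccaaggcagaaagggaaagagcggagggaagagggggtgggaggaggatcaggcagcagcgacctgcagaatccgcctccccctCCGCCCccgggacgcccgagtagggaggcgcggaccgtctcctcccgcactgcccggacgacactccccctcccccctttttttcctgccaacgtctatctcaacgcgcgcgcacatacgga
Nodal: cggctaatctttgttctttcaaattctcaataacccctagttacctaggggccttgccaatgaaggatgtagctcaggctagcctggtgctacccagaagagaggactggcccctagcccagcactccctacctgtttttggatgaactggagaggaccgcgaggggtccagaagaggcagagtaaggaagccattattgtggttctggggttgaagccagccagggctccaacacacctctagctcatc
Tdgf1: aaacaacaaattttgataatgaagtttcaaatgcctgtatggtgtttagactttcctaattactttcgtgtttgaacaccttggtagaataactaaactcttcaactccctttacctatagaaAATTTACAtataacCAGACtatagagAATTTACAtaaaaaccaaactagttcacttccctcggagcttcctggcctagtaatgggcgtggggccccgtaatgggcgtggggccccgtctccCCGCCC

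The Inhbb promoter held 68% G and C and 21 CpG dinucleotides, and 83.7% of 32851 RefSeq promoters of this length held fewer. The Nodal promoter held 53.2% G and C and 3 CpG, and the Tdgf1 promoter 42% and 7 CpG. Motifs were searched on both strands, and the position of a match is that of its first base, with -1 the base just before the start site. CAGAC, the core of the SMAD-binding element, had 1 match in the Tdgf1 window at -113 and none in the windows of Inhbb and Nodal, and 42.2% of all promoters held it. TGTNNATT, a FOXH1-type motif, had matches in the Tdgf1 window at -127 and -101, both on the opposite strand as AATTTACA, and 10.9% of all promoters held it. GGGCGG, the GC box, had 1 match in the Inhbb window at -122 and 1 in the Tdgf1 window at -6, both as CCGCCC, and 32.7% of all promoters held it. TATAAA, the TATA box, had no match in these 3 windows and was in 12.4% of all promoters. A match is a run of letters and not a bound site. The windows of Inhba and Acvr2b, not printed here, held 43.2% and 72.8% G and C and 3 and 24 CpG. That of Acvr2b held CAGAC at -233 and GGGCGG at -189, -154 and -96, and that of Inhba held TATAAA at -91. A link between promoter sequence and transcript level was not tested. Lefty1, Lefty2, Smad7 and Fst are named only.

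Libraries held 17311090 to 23989198 counts in all (median 19628146), and no 2 of them held identical counts. Levels are given as normalized counts, which are read counts scaled to a common library size. Pds5b was at 12.4% of its WT siGLO mean in Pds5b-/- mESCs, at 35% in WT siPds5b mESCs and at 40.7% in dual depleted mESCs. Stag1 was at 23.3% of its WT siGLO mean in Pds5a-/- siStag1 mESCs, and Stag2 at 25.9% in Pds5a-/- siStag2 mESCs. The Pds5a transcript remained at 84.4% in Pds5a-/- siGLO mESCs, so transcript level does not check that label. WT siGLO replicate 1 stood apart from the other 2 WT siGLO libraries, with 74.76 normalized counts of T (brachyury) against 378.5 and 555.7, and WT siPds5b replicate 1 stood apart in the same way, with 63.17 against 408.5 and 492.5. Calls named below that were lost without WT siGLO replicate 1 are marked.

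All 8 markers of embryonic stem cells were detected in every condition. Their summed level was 106400 to 109100 normalized counts in WT siGLO mESCs, 83830 to 90230 in Pds5a-/- siGLO mESCs, 71650 to 83670 in Pds5b-/- siGLO mESCs and 60520 to 63730 in dual depleted mESCs. It was 75020 to 76360 with siStag1 and 54750 to 63680 with siStag2. Over the first 4 of these conditions in that order, 5 markers of formative or primed epiblast summed to 6091 to 8283, 10490 to 15880, 9069 to 10490 and 12540 to 17770, and 5 trophoblast markers to 206.1 to 218.3, 883.7 to 1998, 338.8 to 459.6 and 845.3 to 1951. The summed level of 6 fibroblast markers was 1047 to 1444 in WT siGLO and 318.9 to 1350 in Pds5a-/- siGLO mESCs, with Lum at 3 or fewer in several conditions. It was 1662 to 2070 in WT siPds5b mESCs, above all WT siGLO libraries, and 419.1 to 1249 in dual depleted mESCs. Below all WT siGLO libraries were Pds5b-/- siGLO mESCs at 272.3 to 388.3, and Pds5a-/- mESCs at 285.8 to 907.4 with siStag1 and 554.9 to 827.7 with siStag2. Primitive endoderm markers summed to 850.5 to 1469 in WT siGLO and 920.5 to 1966 in Pds5a-/- siGLO mESCs, neuroectoderm markers to 1963 to 2692 and 1118 to 1499, and two-cell-like markers to 992.4 to 1453 and 128.2 to 231.6. Those two-cell-like markers summed to 860.1 to 1658 in dual depleted mESCs. Fewer cells of a type and less RNA per cell cannot be told apart in these bulk samples. The part of these shifts in the results was not tested.

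Inhbb, the beta B subunit of activin and inhibin, was at its highest level in WT mESCs. Its normalized counts in the 3 WT siGLO libraries were 1468, 822.3 and 903.8, with replicate 1 above the others, and in WT siPds5b libraries they were 1260, 698.7 and 770.3. Both WT conditions overlapped, and each WT siPds5b library was at 85% to 85.9% of the WT siGLO library with its number.

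Loss of either PDS5 subunit went with a lower level of Inhbb, and all knockout libraries were below all WT libraries. Pds5b-/- siGLO mESCs had 456, 376.9 and 407.7 normalized counts, 38.8% of the WT siGLO mean. Pds5a-/- siGLO mESCs had 309.8, 318 and 334.5, or 30.1%, and their libraries lay below those of Pds5b-/- siGLO without overlap. The log2 fold change from WT siGLO was -1.37 (standard error 0.23) in Pds5b-/- and -1.73 (standard error 0.23) in Pds5a-/- mESCs, and Pds5a-/- differed from Pds5b-/- mESCs by -0.37 (standard error 0.23).

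Dual depletion left the lowest Inhbb level of the 7 conditions by its mean, 53.27, 61.16 and 43.85 normalized counts from raw counts of 60, 59 and 44. That was 4.96% of the WT siGLO mean, or 20.2-fold lower, which is -4.34 on the log2 scale (standard error 0.28). Within Pds5a-/- mESCs, siPds5b libraries held 17.2%, 19.2% and 13.1% of the Inhbb in the siGLO library with the same number, a log2 fold change of -2.60 (standard error 0.28). In WT mESCs the same siRNA gave -0.23 (standard error 0.22). The difference between these 2 effects was -2.38 on the log2 scale (standard error 0.36), and it lay between -2.68 and -2.06 in all alternative settings, including those that left out WT siGLO replicate 1 or another library. These values describe the gene that named the list, from the data that named it, and are no test of it.

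Knockdown of a STAG subunit in Pds5a-/- mESCs also went with less Inhbb. Pds5a-/- siStag1 mESCs had 102.7, 120 and 143.5 normalized counts and Pds5a-/- siStag2 mESCs had 53.68, 74.52 and 96.06. All siStag2 libraries lay below all siStag1 libraries, and they overlapped with the dual depleted libraries. From Pds5a-/- siGLO, the log2 fold change of Inhbb was -1.39 (standard error 0.26) with siStag1 and -2.10 (standard error 0.27) with siStag2, a 2.63-fold and a 4.3-fold lower level. In a comparison chosen after the values were seen, Inhbb in dual depleted mESCs was lower than in siStag1-treated mESCs by a log2 difference of -1.21 (standard error 0.31) without overlap, while the difference from siStag2-treated mESCs, -0.50 (standard error 0.33), came with overlapping libraries. The 3 siRNAs were each set against the same Pds5a-/- siGLO libraries, and no WT or Pds5b-/- cells received siStag1 or siStag2 among the libraries analysed here.

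**Figure D1:**
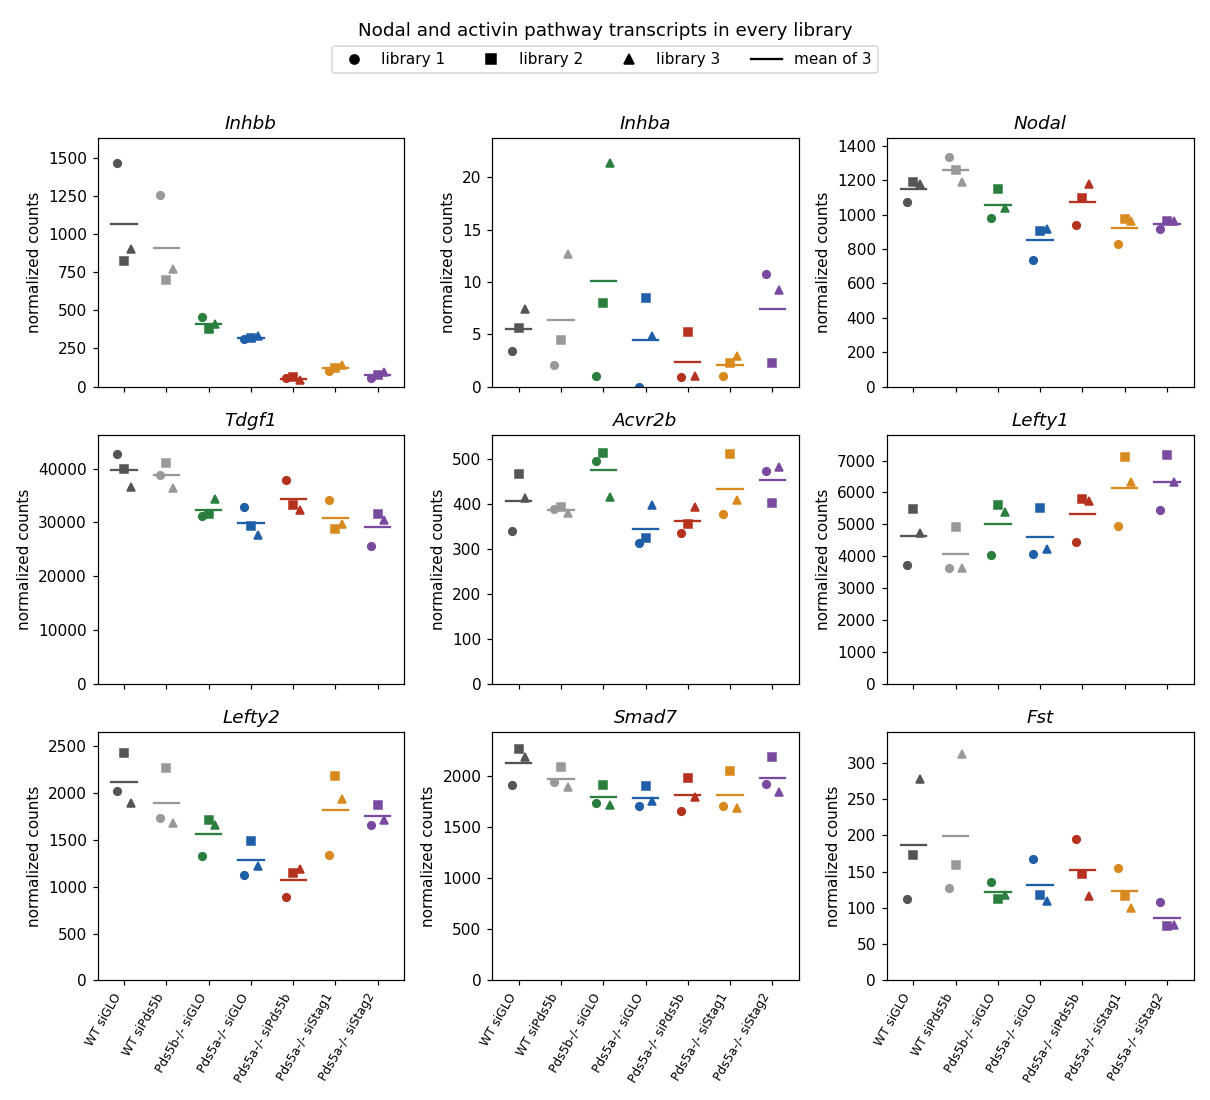
Normalized read counts of the 9 genes (one panel each, linear axis) in the 7 conditions; markers are the 3 libraries of a condition by replicate number and the line is their mean. The mean of Inhbb is 1065 in WT siGLO and 52.76 in dual depleted mESCs, while that of Smad7 lies between 1791 and 2128 in all conditions.

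Among the 14963 genes with enough counts to be tested, 8 had a larger decrease than Inhbb from WT siGLO to dual depleted mESCs. Of the 12176 genes with a mean log2 CPM, a depth-scaled count, of at least 1, 5 did. From Pds5a-/- siGLO to dual depleted mESCs, 5 genes of all those tested had a larger decrease and 0 of the better expressed genes did. From WT siGLO to Pds5a-/- siGLO mESCs, 196 genes had a larger decrease, and to Pds5b-/- siGLO mESCs 347. These ranks describe the gene that named the list and were not tested.

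Inhba, which encodes the beta A subunit, was near the limit of detection. Its raw counts were 4, 5 and 9 in WT siGLO, 2, 4 and 11 in WT siPds5b, and 1, 8 and 22 in Pds5b-/- siGLO libraries. The Pds5a-/- libraries had 0, 9 and 5 counts with siGLO, 1, 5 and 1 with siPds5b, 1, 2 and 3 with siStag1, and 11, 2 and 9 with siStag2. A count of 0 allows up to 3 counts. The siStag1 libraries lay below those of WT siGLO without overlap, at counts near this limit (edgeR adjusted p = 0.341), as libraries did not overlap for 46.1% of all tested genes there. No fold change is given for Inhba, since many of its counts were at or near this limit. The antisense genes that overlap Inhba limit even these counts.

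Nodal transcript changed far less than Inhbb. Its normalized counts were 1074, 1190 and 1178 in WT siGLO and 735.4, 906.3 and 915.6 in Pds5a-/- siGLO libraries, which did not overlap. It fell to 74.3% of the WT siGLO mean in Pds5a-/- siGLO mESCs (log2 fold change -0.43, standard error 0.10, edgeR adjusted p = 0.00156), a call that was lost without Pds5a-/- siGLO replicate 1 (-0.34, adjusted p = 0.0112). In Pds5b-/- siGLO mESCs Nodal was at 980.6, 1148 and 1037, which overlapped with WT (log2 fold change -0.12, adjusted p = 0.348). Pds5a-/- libraries lay below Pds5b-/- libraries (log2 difference -0.31, edgeR adjusted p = 0.0167), which missed the threshold but passed it with DESeq2 (0.00631).

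The Nodal level of dual depleted mESCs, 939.4, 1098 and 1177, overlapped with WT siGLO and was at 93.4% of its mean (log2 fold change -0.10, edgeR adjusted p = 0.417). Within Pds5a-/- mESCs, Nodal was higher with siPds5b than with siGLO in all 3 libraries of the same number, at 128%, 121% and 129%. This difference of 0.33 (standard error 0.10) had an edgeR adjusted p of 0.021, which missed the threshold of 0.01. A model with a block for the replicate number put it past the threshold (0.33, adjusted p = 0.00492), as did DESeq2 (adjusted p = 0.00916) and a fit without Pds5a-/- siPds5b replicate 1 (0.42, adjusted p = 0.00644). Inhbb, another of the ligand genes, had a log2 difference of -2.60 in the same comparison. With siStag1 and siStag2, Nodal was at 922.2 ± 83.2 and 945.6 ± 26.1 normalized counts (SD, n = 3), with edgeR adjusted p = 0.0137 and 0.0213 against WT siGLO. All these libraries lay below WT siGLO (log2 fold change -0.32 and -0.28). Both passed the threshold with the replicate block (adjusted p = 0.00317 and 0.00649). By DESeq2 siStag1 passed (0.00845) and siStag2 did not (0.0147).

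Tdgf1, the co-receptor gene, had the highest counts of the 9 genes. Its normalized counts were 42790, 39980 and 36500 in WT siGLO and 32790, 29340 and 27710 in Pds5a-/- siGLO libraries. It fell to 75.3% of the WT siGLO mean in Pds5a-/- siGLO mESCs (log2 fold change -0.41, standard error 0.09, edgeR adjusted p = 0.00144). It fell as well in Pds5a-/- siStag1 mESCs (-0.37, standard error 0.09, edgeR adjusted p = 0.00315) and in Pds5a-/- siStag2 mESCs (-0.45, standard error 0.09, edgeR adjusted p = 0.000367), where it was at 34090, 28810 and 29620 and at 25640, 31450 and 30500. In dual depleted mESCs Tdgf1 was at 37860, 33130 and 32250, which overlapped with WT siGLO (log2 fold change -0.21, edgeR adjusted p = 0.0641). Pds5b-/- siGLO mESCs had 31090, 31450 and 34380, all below WT siGLO, and missed the threshold (-0.30, edgeR adjusted p = 0.0142).

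The call for Tdgf1 in Pds5a-/- siGLO mESCs was lost without WT siGLO replicate 1 (-0.35, adjusted p = 0.0122) or Pds5a-/- siGLO replicate 3 (-0.36, adjusted p = 0.011), and that for siStag1 without WT siGLO replicate 1 (adjusted p = 0.0252) or 2 (0.0109) or siStag1 replicate 2 (0.0267) or 3 (0.0141). The call for siStag2 held in all alternative settings, with an adjusted p of at most 0.00451.

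Acvr2b, a type II receptor gene, differed between the 2 knockouts. Pds5a-/- siGLO libraries had 311.8, 323.6 and 397.1 normalized counts and Pds5b-/- siGLO libraries had 495.1, 511.5 and 415.4, without overlap. WT siGLO libraries, at 338.6, 465.2 and 412.6, overlapped with both. Acvr2b was lower in Pds5a-/- than in Pds5b-/- mESCs (log2 difference -0.46, standard error 0.13, edgeR adjusted p = 0.00866), and this call was lost without replicate 1 or 2 of either knockout, with adjusted p between 0.0287 and 0.0403, and in 2 other settings. Against WT siGLO, the edgeR adjusted p was 0.194 in Pds5a-/- siGLO mESCs, and no condition passed the threshold. From Pds5a-/- siGLO to siStag2 all Acvr2b libraries were higher (log2 difference 0.39, edgeR adjusted p = 0.0609). Reads of the antisense gene that overlaps Acvr2b may be among these counts.

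Lefty2 and Lefty1, the paired genes of Nodal antagonists, did not move together from WT siGLO after loss of PDS5 proteins. Lefty2 had 2028, 2430 and 1900 normalized counts in WT siGLO, 1131, 1492 and 1226 in Pds5a-/- siGLO and 894.1, 1151 and 1189 in dual depleted libraries, and the last 2 conditions lay below WT siGLO without overlap. It fell to 60.5% in Pds5a-/- siGLO mESCs (log2 fold change -0.72, standard error 0.17, edgeR adjusted p = 0.00372) and to 50.9% in dual depleted mESCs (-0.98, standard error 0.17, edgeR adjusted p = 0.000168). The first call was lost without Pds5a-/- siGLO replicate 1 (adjusted p = 0.0178) or 3 (0.0159) or WT siGLO replicate 2 (0.0177). The second held in all alternative settings, with an adjusted p of at most 0.00105. Lefty2 in Pds5b-/- siGLO mESCs was at 1566 ± 206 (SD, n = 3) and missed the threshold (-0.43, edgeR adjusted p = 0.0581).

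Lefty1 had 3713, 5467 and 4732 normalized counts in WT siGLO, 4055, 5517 and 4238 in Pds5a-/- siGLO and 4444, 5797 and 5733 in dual depleted libraries, and these 3 conditions overlapped. Its log2 fold change from WT siGLO was -0.01 in Pds5a-/- siGLO mESCs and 0.20 in dual depleted mESCs. Lefty1 was lowest in replicate 1 in 6 of 7 conditions, and in WT siPds5b mESCs replicates 1 and 3 were at 3640 and 3623.

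STAG knockdown in Pds5a-/- mESCs went with higher levels of both Lefty genes. Against the Pds5a-/- siGLO library with its number, Lefty1 was at 122%, 129% and 149% with siStag1 and at 135%, 130% and 150% with siStag2. Lefty2 was at 119%, 146% and 158% with siStag1 and at 147%, 126% and 140% with siStag2. Without a block these differences missed the threshold, with edgeR adjusted p of 0.452 and 0.145 for Lefty1 and 0.247 and 0.111 for Lefty2. In these comparisons libraries with the same number deviated together, and once the replicate number was blocked Lefty1 passed at 0.41 with siStag1 (adjusted p = 0.00446) and at 0.46 with siStag2 (0.000253), and Lefty2 at 0.50 (0.00796) and 0.46 (0.0029) on the log2 scale. Whether a shared number marks a shared culture or day is not stated.

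Lefty2 was lower in dual depleted than in siStag1-treated Pds5a-/- mESCs, a comparison chosen after the values were seen (log2 difference -0.76, standard error 0.17, edgeR adjusted p = 0.00596). This call was lost without siPds5b replicate 1 (adjusted p = 0.0265), 2 (0.0145) or 3 (0.0114) or siStag1 replicate 2 (0.0314) or 3 (0.0225), though the difference stayed between -0.84 and -0.61 in these fits. Against siStag2 the difference in Lefty2 was -0.70 (standard error 0.17, edgeR adjusted p = 0.0149), past the threshold with DESeq2 (adjusted p = 0.00048).

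The ratio of Lefty2 to Lefty1 within a library, a measure chosen after the values were seen, was 0.546, 0.444 and 0.402 in WT siGLO and 0.478, 0.461 and 0.466 in WT siPds5b libraries. The ratio was 0.314 ± 0.0125 with loss of PDS5B and 0.279 ± 0.00947 with loss of PDS5A (SD, n = 3 each). Dual depleted libraries had the lowest ratios, 0.201, 0.198 and 0.207. The siStag1 and siStag2 conditions were at 0.295 ± 0.0206 and 0.279 ± 0.023 (SD, n = 3 each), close to Pds5a-/- siGLO. The 5 knockout conditions lay below both WT conditions without overlap, and an exact two-sided permutation test of 3 against 3 libraries gave 0.1 for each of them against WT siGLO, the smallest p this design allows, or 0.12 adjusted over 6 comparisons.

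**Figure D2:**
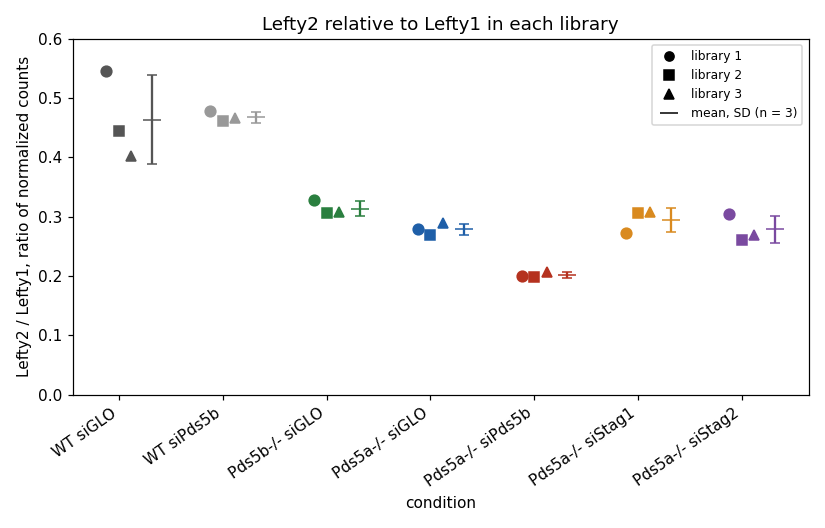
Ratio of Lefty2 to Lefty1 normalized counts (linear axis, no unit) in each library of the 7 conditions; points are libraries and the bar with whiskers is the mean with the SD of 3. The WT conditions sit between 0.402 and 0.546 and dual depleted mESCs between 0.198 and 0.207.

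Smad7, the inhibitory SMAD, held a narrow range. Its normalized counts were 1920, 2270 and 2195 in WT siGLO, and the means of the other conditions lay between 1791 and 1989. By edgeR without a replicate block, Smad7 did not pass the threshold in any comparison. Its adjusted p against WT siGLO was 0.0374 in Pds5a-/- siGLO, 0.0367 in Pds5b-/- siGLO and 0.0395 in dual depleted mESCs. The log2 fold changes were -0.25, -0.25 and -0.23. With the replicate number blocked, Smad7 passed in these comparisons (adjusted p = 0.00319, 0.00347 and 0.00387) and with siStag1 (0.00533). It did not pass with siStag2 (0.201) or in WT siPds5b mESCs (0.926). The comparisons that passed were not taken as paired.

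Fst, which encodes follistatin, was low and varied within WT mESCs. It had 111.7, 172.3 and 277 normalized counts in WT siGLO and 127.4, 159.6 and 311.1 in WT siPds5b libraries. The lowest level was in Pds5a-/- siStag2 mESCs, at 108.3, 74.52 and 76.64, below all WT siGLO libraries, and it missed the threshold (log2 fold change -1.11, standard error 0.34, edgeR adjusted p = 0.0138). Fst was past the threshold there with DESeq2 (adjusted p = 0.00177) and without WT siGLO replicate 1 (-1.38, adjusted p = 0.00294). Within Pds5a-/- mESCs, siStag2 libraries were at 64.6%, 63.2% and 69.8% of the siGLO library with their number (log2 difference -0.60, edgeR adjusted p = 0.298).

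**Figure D3:**
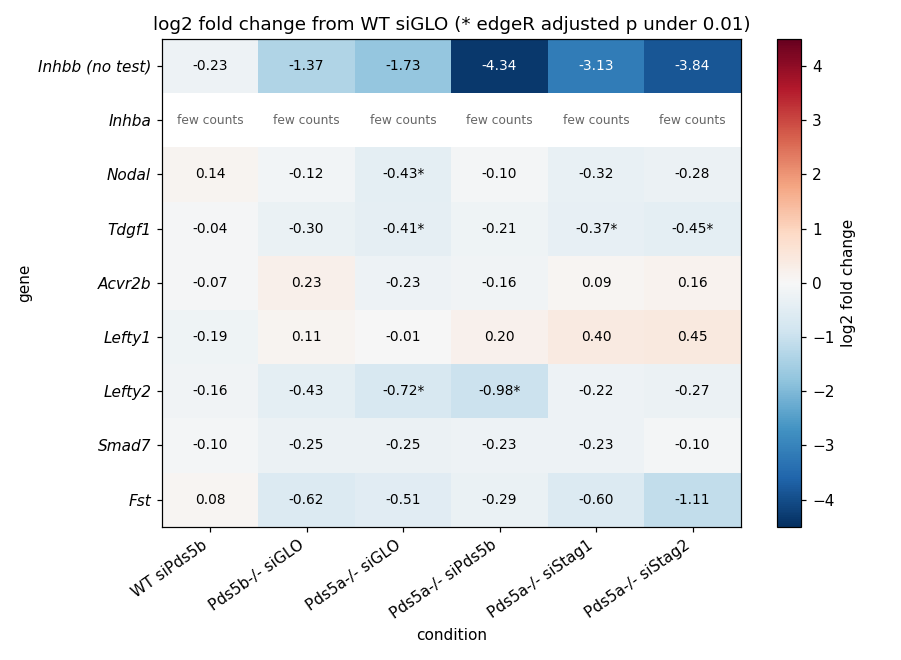
Log2 fold change of each gene from WT siGLO in the other 6 conditions (colour and printed value); asterisks mark an edgeR adjusted p under 0.01, Inhbb was not tested and Inhba is left blank for its few counts. Inhbb reaches -4.34 in dual depleted mESCs, while the values of Nodal, Tdgf1, Acvr2b, Lefty1, Lefty2 and Smad7 lie between -0.98 and 0.45. Those of Fst lie between -1.11, in Pds5a-/- siStag2 mESCs, and 0.08.

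Counted over the 8 genes other than Inhbb, all of which passed the filter on low counts, 3 fell in Pds5a-/- siGLO mESCs compared to WT siGLO, Nodal, Lefty2 and Tdgf1, where 17.8% of all tested genes were differentially expressed genes (DEGs) and 8.12% were lower. The count was 1 to 3 without 1 library and 3 with DESeq2, and WT siGLO replicates 1 and 2 and Pds5a-/- siGLO replicates 1 and 3 each cost calls, as given above. In dual depleted mESCs 1 of 8 fell, Lefty2, against 32% of all tested genes called and 14.6% lower. With siStag1 1 of 8 fell, Tdgf1, against 20% called and 9.37% lower, and with siStag2 1 of 8, again Tdgf1, against 30.1% called and 13.9% lower. The 6 comparisons with WT siGLO share its 3 libraries. Of all tested genes 40.8% did not overlap with WT siGLO in Pds5a-/- siGLO, 45.3% in Pds5b-/- siGLO and 54.3% in dual depleted mESCs. The share was 46.1% with siStag1 and 52.4% with siStag2. In that order 4, 3, 1, 3 and 4 of the 8 genes lay below WT siGLO without overlap and 0 above. Between the knockouts 41.1% of all tested genes did not overlap, and 33.2% between siPds5b and siStag1.

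In Pds5b-/- siGLO mESCs edgeR called 0 of 8 genes against WT siGLO, where 18.2% of tested genes were called, with 3 of 8 at an unadjusted p under 0.05 (42.6% of all tested genes) and 0 called by DESeq2. In WT siPds5b mESCs edgeR called 0 of 8, with 0.00668% of tested genes called, 0 of 8 at an unadjusted p under 0.05 (4.22% of all) and 0 called by DESeq2. The median log2 fold change of the 8 genes from WT siGLO was -0.35 in Pds5a-/- siGLO, -0.18 in Pds5b-/- siGLO and -0.22 in dual depleted mESCs, beside a median of 0 over all tested genes in each.

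Within Pds5a-/- mESCs edgeR without a replicate block called 0 of 8 genes with siPds5b, siStag1 or siStag2 against siGLO. Of all tested genes 7.59%, 0.0936% and 2.24% were called. At an unadjusted p under 0.05 there were 2, 3 and 3 of the 8 genes, against 29.3%, 10.7% and 25.3% of all tested genes, and DESeq2 called 1, Nodal with siPds5b, 0 and 0. Libraries with the same number deviated together in these comparisons. With the number blocked, 1 (Nodal), 2 and 2 (Lefty1 and Lefty2) of the 8 were called, beside 1568, 48 and 677 of all 14963 tested genes. Between siStag2 and siStag1 edgeR called 0 of 8, against 0.394% of tested genes, with 0 at an unadjusted p under 0.05 (19.9% of all) and 0 by DESeq2. Pds5a-/- and Pds5b-/- siGLO mESCs differed in 1 of 8 genes, Acvr2b, against 19.2% of tested genes called and 9.46% lower in Pds5a-/-. In dual depleted mESCs 1 of 8, Lefty2, was lower than with siStag1, against 7.36% called and 3.54% lower, and 0 of 8 differed from siStag2 by edgeR, against 3.96%, with 4 at an unadjusted p under 0.05 (23.8% of all) and 1 called by DESeq2. The effect of siPds5b did not differ between genotypes past the threshold for any of the 8 genes by edgeR, against 1.48% of all tested genes, with 0 at an unadjusted p under 0.05 (17.3% of all) and 0 by DESeq2.

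Levels can be set between genes when counts are given per kilobase of exon and scaled for depth. On this per-kilobase scale WT siGLO mESCs had Tdgf1 at 765, Lefty1 at 133, Lefty2 at 41, Nodal at 27.6, Smad7 at 23.8, Inhbb at 12.6, Acvr2b at 5.21, Fst at 2.06 and Inhba at 0.0435, and the libraries of no 2 neighbours in this order overlapped. Inhbb thus stood between Smad7 and Acvr2b. In Pds5b-/- siGLO mESCs its per-kilobase level of 4.9 overlapped with that of Acvr2b, 6.09. In dual depleted mESCs its per-kilobase level of 0.626 was below Fst at 1.68, and Nodal at 25.8 was next to Lefty2 at 20.8, with overlap. With siStag1 and siStag2, Inhbb and Fst overlapped, at 1.45 and 1.36 and at 0.887 and 0.951.

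The genes most like Inhbb over the 21 libraries were Nkx6-3, Accsl and Mras, by the root mean square difference of centred log2 levels among 12028 genes. Their differences were 0.47, 0.52 and 0.54, where Inhbb itself varied by 1.58 around its mean. Mean normalized counts of Nkx6-3 were 191.1 in WT siGLO, 105.9 in Pds5b-/- siGLO, 39.47 in Pds5a-/- siGLO and 8.368 in dual depleted mESCs. Accsl had 437.2, 116.4, 130.6 and 33.53 and Mras had 761.2, 215.4, 189.7 and 62.95 in the same conditions. Nodal was closest to Tyk2 (0.12), Atxn7l3b (0.12) and Lzic (0.13), Lefty1 to Tspan7 (0.15), Relt (0.17) and Itgb5 (0.17), and Lefty2 to Susd1 (0.18), Bai1 (0.19) and Zbtb7a (0.2), where these 3 genes themselves varied by 0.21, 0.29 and 0.37. A gene that varies little is close to many others by this measure.

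Of 47 other genes of the pathway, 42 had enough counts to be tested. In Pds5a-/- siGLO mESCs 14 of 42 (33.3%) were DEGs against WT siGLO, 8 higher and 6 lower, and in Pds5b-/- siGLO mESCs 6 of 42 (14.3%), 4 higher and 2 lower. Dual depleted mESCs had 17 (40.5%), 11 higher and 6 lower. With siStag1 there were 13 (31%), 6 higher and 7 lower, and with siStag2 16 (38.1%), 11 higher and 5 lower. Of all tested genes, 17.8%, 18.2%, 32%, 20% and 30.1% were DEGs in these 5 comparisons, so the share among the pathway genes was above that of all genes in 4 of them and below it in Pds5b-/- siGLO mESCs, with no test of the difference. In WT siPds5b mESCs edgeR called 0 of 42, with 1 at an unadjusted p under 0.05 (4.22% of all tested genes) and 0 by DESeq2. Without 1 library the counts were 7 to 14 in Pds5a-/- siGLO (7 without WT siGLO replicate 2 or 3 and 9 without Pds5a-/- siGLO replicate 3), 3 to 6 in Pds5b-/- siGLO (4 without Pds5b-/- siGLO replicate 1 or WT siGLO replicate 2, 3 without Pds5b-/- siGLO replicate 2 or WT siGLO replicate 3), 13 to 18 in dual depleted, 9 to 12 with siStag1 and 11 to 14 with siStag2. The Pds5a-/- siGLO count was 8 with only both conditions in the fit and 10 without WT siGLO replicate 1. Over all tested genes, calls in Pds5a-/- siGLO fell as well, from 2656 to 1990, 2048 and 1786 without WT siGLO replicate 1, 2 and 3. They fell to 1790 with only both conditions in the fit.

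By role, Pds5a-/- siGLO mESCs had 1 of 9 other ligand and processing genes called, 0 of 6 receptors, 2 of 6 SMADs and partners, both lower, 5 of 12 inhibitors, all higher, and 6 of 9 targets, 2 higher and 4 lower. Of all tested genes 17.8% were called. The 2 SMAD pathway genes were Smad4, the common SMAD, at -0.25 (edgeR adjusted p = 0.00883), and Zfyve9, which encodes the adaptor SARA, at -0.41 (edgeR adjusted p = 0.00594). Both calls were lost without replicate 2 or 3 of Pds5a-/- siGLO or of WT siGLO, and that for Zfyve9 also without Pds5a-/- siGLO replicate 1, with adjusted p between 0.0127 and 0.0619. In dual depleted mESCs, where 32% of all tested genes were called, 4 of 9 ligand and processing genes were, 3 higher and 1 lower. Called as well were 1 of 6 receptors, higher, and 1 of 6 SMADs and partners, lower (16.7% each). Of the inhibitors 6 of 12 were called, 5 higher and 1 lower, and of the targets 5 of 9, 2 higher and 3 lower.

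Of the inhibitors, Skil, Ski and Smurf1 rose in all 5 knockout conditions against WT siGLO. Skil, which encodes the SMAD corepressor SnoN, had 3140, 2946 and 3179 normalized counts in WT siGLO, 5418, 4517 and 5589 in Pds5a-/- siGLO, 5750, 5580 and 5426 in Pds5b-/- siGLO and 6791, 6485 and 7223 in dual depleted libraries. All knockout libraries lay above all WT siGLO libraries. It rose by 0.74, 0.85 and 1.15 on the log2 scale (standard error 0.07 each, edgeR adjusted p = 5.78e-08, 7.53e-09 and 1.44e-11), and by 1.13 and 1.14 with siStag1 and siStag2, and these 5 calls held in all alternative settings. Ski, a related corepressor, rose by 0.29 to 0.51. Smurf1, a ubiquitin ligase that acts on the receptors and SMADs, rose by 0.29 to 0.51 too, and was chosen for naming after its values were seen. The calls for Ski were lost without WT siGLO replicate 2 or 3, among other libraries, in Pds5a-/- siGLO, siPds5b and siStag1 mESCs, with adjusted p up to 0.0986, 0.0256 and 0.0537, and held in the other 2 conditions. In Pds5a-/- siGLO and siStag1 mESCs they were also lost without WT siGLO replicate 1. The calls for Smurf1 were lost without WT siGLO replicate 2 or 3 or replicate 2 of the knockout, among others, in Pds5a-/- siGLO and Pds5b-/- siGLO mESCs, with adjusted p up to 0.0268 and 0.0439. In Pds5b-/- siGLO mESCs the Smurf1 call was also lost without WT siGLO replicate 1.

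Targets that fell in all 5 knockout conditions were Eomes and Pmepa1. Eomes, a T-box factor of mesendoderm, had 344.6, 579 and 579.7 normalized counts in WT siGLO, with replicate 1 the lowest, 173.7, 236.6 and 220.7 in Pds5a-/- siGLO and 188.2, 206.3 and 200.3 in dual depleted libraries. It fell by 1.25 on the log2 scale in Pds5a-/- siGLO (standard error 0.23, edgeR adjusted p = 0.000507) and by 1.34 in dual depleted mESCs (edgeR adjusted p = 0.000131). Eomes also fell in Pds5b-/- siGLO mESCs (log2 fold change -0.99, edgeR adjusted p = 0.00329), a call lost without Pds5b-/- siGLO replicate 1 (adjusted p = 0.0227) or 2 (0.014) or WT siGLO replicate 2 (0.0173) or 3 (0.019). The summed level of the 6 primitive streak and mesendoderm markers, which include Eomes, was 486.4 to 1235 in WT siGLO, 298.6 to 406.8 in Pds5a-/- siGLO and 333.9 to 379.4 in dual depleted mESCs.

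Pmepa1, a target that dampens SMAD signaling, was at 625.5 ± 87.1 normalized counts in WT siGLO, 393.7 ± 53.4 in Pds5a-/- siGLO, 303.6 ± 18.5 in Pds5b-/- siGLO and 295.5 ± 52.6 in dual depleted mESCs (SD, n = 3 each). From WT siGLO it changed by -0.67, -1.04 and -1.08 on the log2 scale (edgeR adjusted p = 0.00159, 1.81e-05 and 4.14e-06), and the first missed the threshold without WT siGLO replicate 3 (adjusted p = 0.0103).

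Ltbp1, which encodes a binding protein of latent TGF-beta, rose in Pds5a-/- siGLO mESCs by 0.97 and with siStag2 by 1.97 (standard error 0.19 each, edgeR adjusted p = 0.000938 and 2.26e-07).

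Among genes of low level, the ligand gene Tgfb3 had 19.76, 16.9 and 20.67 normalized counts in WT siGLO and 52.82, 106.6 and 113.7 in Pds5a-/- siGLO libraries, and rose by 2.24 on the log2 scale (edgeR adjusted p = 0.000539). Fstl3, a follistatin-like gene whose product binds activin, had 13.75, 7.885 and 14.88 in WT siGLO, 15.24, 37.41 and 64.58 in Pds5a-/- siGLO and 46.17, 70.49 and 106.6 in dual depleted libraries. It rose by 1.65 (edgeR adjusted p = 0.0033, lost without WT siGLO replicate 1 or 2 or Pds5a-/- siGLO replicate 3, with adjusted p up to 0.0573) and by 2.56 (edgeR adjusted p = 1.02e-05). Replicate 1 of Pds5a-/- siGLO was the lowest library for both Tgfb3 and Fstl3.

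**Figure D4:**
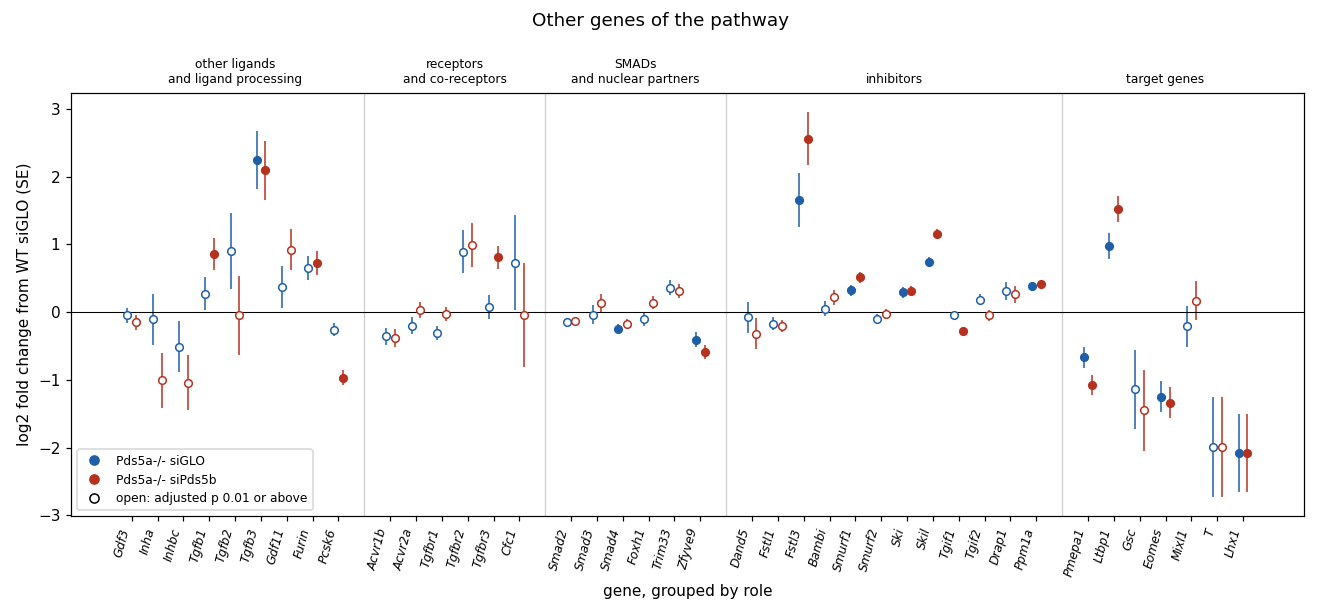
Log2 fold change from WT siGLO of 40 other pathway genes tested, grouped by role, in Pds5a-/- siGLO (blue) and dual depleted (red) mESCs; bars are the standard error and filled symbols have an edgeR adjusted p under 0.01. Skil, Tgfb3 and Fstl3 lie to the side of higher levels and Eomes and Pmepa1 to that of lower levels in both.

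Within Pds5a-/- mESCs, siPds5b changed 4 of the 42 genes (9.52%, beside 7.59% of all genes tested), 3 higher and 1 lower, or 6 with the replicate number blocked and 2 with only both conditions in the fit. Over all tested genes those 2 fits called 1568 and 524. By edgeR without the block siStag1 changed 0 (0.0936% of all genes tested), with 6 at an unadjusted p under 0.05 (10.7% of all). DESeq2 called 1, beside 70 of 23412 genes, and the block 1, beside 48 of 14963. With siStag2 3 (7.14%, beside 2.24% of all genes tested) changed, all higher, among them Ltbp1 and Skil, and 1 without Pds5a-/- siGLO replicate 2 or siStag2 replicate 1. Over all tested genes, calls fell from 335 to 128 and 68 without these libraries.

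Pcsk6, which encodes a proprotein convertase that processes Nodal, was lowest in dual depleted mESCs, at 519.4, 581.5 and 546.2 normalized counts against 876.6, 888.5 and 915.6 in Pds5a-/- siGLO and 1212, 1045 and 958.4 in WT siGLO libraries. It fell by 0.97 from WT siGLO and by 0.70 from Pds5a-/- siGLO (edgeR adjusted p = 9.99e-08 and 5.78e-05). Tgfbr3, which encodes the co-receptor betaglycan, had 172.3, 169 and 186.4 in dual depleted libraries against 88.37, 101 and 128.2 in Pds5a-/- siGLO and rose by 0.73 (edgeR adjusted p = 0.00541). That call for Tgfbr3 was lost without any of the 3 dual depleted libraries or without Pds5a-/- siGLO replicate 1 or 2, with adjusted p between 0.0127 and 0.0351. In the comparisons chosen after the values were seen, Tgfbr3 in dual depleted mESCs was also higher than with siStag1 by 1.18 (edgeR adjusted p = 7.94e-05) and than with siStag2 by 0.87 (0.00266). The difference from siStag2 lost its call without dual depleted replicate 3 or siStag2 replicate 2 or 3, with adjusted p up to 0.0161.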

How the data were processed

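RNA-seq was performed by the study in 21 libraries of v6.5 mESCs in 7 conditions. The authors prepared poly-A libraries, mapped them to mm10 with STAR, and deposited raw read counts for 23412 gene symbols in each library, without normalization. The counting tool, annotation and use of strand are not given in the sources used here. Conditions were read from the labels. Positions came from GENCODE vM21 and promoters from RefSeq (GRCm38.p6).

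Genes were filtered with edgeR 4.0.16 (filterByExpr over the 7 conditions, 14963 kept) in R 4.3.3, normalized by TMM and fitted with 1 robust quasi-likelihood model of a mean per condition. DEGs had a Benjamini-Hochberg adjusted p under 0.01 over all tested genes. Normalized counts refer to the mean effective library size, 19816922. Standard errors are the log2 fold change divided by the square root of F. Total counts of 17311090 to 23989198 limit genes with few counts, and intervals cover the spread between these libraries.

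The members, the lists of other pathway genes and of markers of 8 cell types, and the rules for naming genes were chosen with earlier results of these data known, so counts over the members are descriptions. Named were all 9 members, per comparison the 3 pathway DEGs with the largest increase and decrease at a mean log2 CPM of at least 0 (not all are in the text, and 2 target genes are counted but not reported here), the 3 genes closest to each of Inhbb, Nodal, Lefty1 and Lefty2, and the targeted genes. The contrasts of dual depletion with siStag1 and siStag2 and the Lefty ratio were added after the values were seen.

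Alternatives were DESeq2 1.42.0, an adjusted p under 0.05, RLE, library size only, no filter, at least 10 counts in every library, fits of the compared conditions alone, a block for the replicate number, and leaving out each library. Same-numbered libraries deviated together (each correlation over 0.1 across 12029 genes) for WT siPds5b with WT siGLO, for the 3 siRNAs with siGLO in Pds5a-/- mESCs and for siPds5b with siStag1 (lowest 0.336, 0.336, 0.175, 0.135 and 0.289), a pairing read from replicate numbers in the labels and the data. The scripts were tested on simulated data. Plots were drawn with matplotlib 3.10.9 in Python 3.11.15.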

Additional observations from a re-analysis of the deposited data

Results flagged for a closer look

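In 6 results the difference between 2 knockouts, or between genotypes in the effect of an siRNA, was itself past the threshold of edgeR's quasi-likelihood test. Acvr2b, the type II receptor gene, was lower in Pds5a-/- than in Pds5b-/- siGLO mESCs by a log2 difference of -0.46 (standard error 0.13, adjusted p = 0.00866, and 0.0287 to 0.0403 without replicate 1 or 2 of either). Tgfb3 was higher in Pds5a-/- mESCs by 1.47 (standard error 0.41, adjusted p = 0.00875, up to 0.0443 and lost without any 1 Pds5b-/- library or Pds5a-/- replicate 2 or 3), and Ppm1a, a SMAD phosphatase gene, by 0.26 (standard error 0.07, adjusted p = 0.00477, up to 0.0601 and lost without any 1 Pds5b-/- library or Pds5a-/- replicate 1 or 2). Smad4 was lower by -0.42 (standard error 0.07, adjusted p = 8.83e-05), with 1461 to 1594 normalized counts in Pds5a-/- and 1979 to 2114 in Pds5b-/- libraries, and this difference held in all alternative settings. Zfyve9, the gene of the SMAD adaptor SARA, was lower by -0.5 (standard error 0.11, adjusted p = 0.00118, and 0.0127 without Pds5b-/- replicate 1). Each knockout was 1 clone, so the gene and the clone cannot be told apart in these differences.

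By edgeR at an adjusted p under 0.01, Pcsk6 was the 1 of the 42 other pathway genes, beside 1.48% of all genes tested, for which the effect of siPds5b differed between Pds5a-/- and WT mESCs (log2 difference of effects -0.72, standard error 0.15, adjusted p = 0.00551). WT libraries held 1212, 1045 and 958.4 normalized counts with siGLO and 1197, 947.6 and 1105 with siPds5b, which overlapped, whereas Pds5a-/- libraries went from 876.6, 888.5 and 915.6 with siGLO to 519.4, 581.5 and 546.2. The call for Pcsk6 was lost in 11 of 20 alternative settings, with adjusted p up to 0.0278, among them 10 of the 12 that left out 1 library. The number of pathway genes called was 2 by DESeq2, with the replicate block and without WT siGLO replicate 1, 3 at an adjusted p under 0.05, and 0 with only the conditions compared.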

How the results depend on the processing

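No called value changed its sign under an alternative. The Inhbb log2 fold change in dual depleted mESCs stayed between -4.5 and -4.03, that in Pds5a-/- siGLO mESCs between -1.89 and -1.43 and that in Pds5b-/- siGLO mESCs between -1.51 and -1.05, while in WT siPds5b mESCs, where its libraries overlapped, it ranged from -0.54 to 0.08. Counts of the 8 other genes called changed as follows, as did those of all 14963 tested genes. In Pds5b-/- siGLO mESCs 4677 of these were called at an adjusted p under 0.05 and 3316 with the block, against 2725. In dual depleted mESCs it was 6691 and 5387 against 4787. With siStag1 against WT siGLO it was 4664 and 3518 against 2991, and with siStag2 6428 and 5037 against 4510. Between the knockouts it was 4849 and 3552 against 2873. Of the 8 genes, 2 were called in Pds5b-/- siGLO mESCs at an adjusted p under 0.05, 1 by library size only, 1 with only the conditions compared and 3 with the block. Over all tested genes library size only called 2681 of 14963 there, and the fit of only the conditions compared called 2554 of 14114. In dual depleted mESCs 2 were called at 0.05 and 2 with the block. With siStag1 against WT siGLO 2 were called by DESeq2, at 0.05 and with only the conditions compared, and 4 with the block. There DESeq2 called 3322 of all 23412 genes, and the fit of only the conditions compared called 2949 of 14154. With siStag2 against WT siGLO 2 were called by DESeq2, beside 4776 of all 23412 genes, 3 at 0.05 and 3 with the block. Between the knockouts 2 were called by DESeq2, at 0.05 and with the block, and 0 by library size only and with only the conditions compared, where Acvr2b had an adjusted p of 0.0111 and 0.0159. Over all genes DESeq2 called 3359 of 23412 between the knockouts, library size only 2798 of 14963, and the fit of only the conditions compared 1810 of 14122. From Pds5a-/- siGLO to siPds5b 1 (Nodal) was called by DESeq2, at 0.05 and with the block, beside 1462 of 23412, 2353 of 14963 and 1568 of 14963 genes. Between siPds5b and siStag1 0 were called by library size only and with only the conditions compared, and between siPds5b and siStag2 1 (Lefty2) was called by DESeq2, at 0.05, with only the conditions compared and with the block. The cause was not tested. Without 1 library the counts ranged from 1 to 3 for Pds5a-/- siGLO against WT siGLO, from 0 to 1 for siStag1, from 1 to 2 for siStag2, from 0 to 2 between the knockouts, from 0 to 1 from Pds5a-/- siGLO to siPds5b and from 0 to 1 between siPds5b and siStag1, and stayed at 1 in dual depleted mESCs and at 0 elsewhere.

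With the replicate block, 2 of the 8 genes (Lefty1 and Lefty2) were called for siStag1 and 2 for siStag2 against Pds5a-/- siGLO, and 4 in Pds5a-/- siGLO against WT siGLO. Of all 14963 tested genes, the block called 48, 677 and 3175 in these comparisons, against 14, 335 and 2656 without it. In the comparisons with WT siGLO other than WT siPds5b, between the knockouts and between siPds5b and siStag2, 1 or more same-number correlations were at most 0.1. These comparisons were not taken as paired, though some of their correlations were higher. For Pds5a-/- siGLO with WT siGLO they were 0.323, 0.239 and 0.0613, and for Pds5b-/- siGLO with WT siGLO 0.302, 0.234 and 0.0887. The block was fitted as the same replicate effect over all 21 libraries, these conditions included. In the paired comparisons the block changed no call of the 8 genes beside these of Lefty1 and Lefty2 and that of Nodal with siPds5b. Of the 42 other pathway genes, the count called changed by over 1.5 times in Pds5a-/- siGLO against WT siGLO (14, and 8 with only the conditions compared), Pds5b-/- siGLO (6, and 13 at 0.05, 10 with only the conditions compared and 10 with the block), siStag1 (13, and 20 at 0.05), between the knockouts (6, and 14, 3 and 10 in those settings) and, within Pds5a-/-, with siPds5b (4, and 7 at 0.05 and 2 with only the conditions compared), siStag2 (3, and 5 and 1), siStag1 (0, and 1 at 0.05, by DESeq2 and with the block) and siStag2 against siStag1 (0, and 2 at 0.05, by DESeq2, with only the conditions compared and with the block). It also did so between siPds5b and siStag1 (1, and 4 by DESeq2, 6 at 0.05, 5 with the block, 2 with no filter on low counts and 4 without dual depleted replicate 1) and for the difference in the effect of siPds5b between Pds5a-/- and WT (1, and 2 by DESeq2, 3 at 0.05, 2 with the block and 0 with only the conditions compared). With siPds5b the block called 6. Over all tested genes, fits of only the conditions compared gave 1790 calls in Pds5a-/- siGLO and 2554 in Pds5b-/- siGLO, against 2656 and 2725 with all conditions. Between the knockouts they gave 1810 against 2873. Within Pds5a-/- they gave 524 against 1136 with siPds5b and 99 against 335 with siStag2. Genes with few counts, such as Inhba, are limited by depth.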
